A study of Mus musculus with 9 samples.

Results

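The kinesin superfamily was read from every row of the count table whose gene symbol begins with Kif and a digit, which gave 40 rows of 24421. By their known roles, 12 of these genes were grouped as motors of the spindle and of cytokinesis (called mitotic kinesins here). Another 15 encode motors that carry cargo along microtubules or act on the growth of those microtubules (transport kinesins). A further 6 encode kinesins of the cilium or centriole, and 4 were grouped as other. Among these 4 is Kif2a, which shortens microtubule ends and is in none of the counts and sums of mitotic kinesins. The remaining 3 rows are no motor: Kif1bp encodes a kinesin-binding protein, Kif16bos is an antisense transcript and Kif4-ps is a pseudogene.

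Kinesins are proteins that turn ATP into movement along microtubules or into the shortening of microtubule ends. In dividing cells they separate the spindle poles, align the chromosomes and build the midzone at which the daughter cells part, and their transcripts accumulate late in the cell cycle. In neurons and glia other members carry vesicles, organelles and protein complexes, and a further set builds cilia or drives their beat.

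The study asked what BAL101553 does to SB28 glioma in the mouse brain. SB28 is a single mouse glioma line that carries GFP and luciferase, and BAL101553 is an orally given prodrug of BAL27862, a compound that binds tubulin and activates the spindle assembly checkpoint. RNA was sequenced, and the reads counted per gene, in 9 libraries from the brains of C57BL/6 mice, 3 in each of 3 groups. The control group holds SB28 cells from vehicle-treated mice, and the BAL101553 group holds SB28 cells from mice given BAL101553. The third group is labelled astrocytes, and its labels name BAL101553 as the treatment too, so that no vehicle-treated astrocyte library stands beside it. The labels call the material of the first 2 groups whole tissue, whereas the methods describe sorting of GFP-positive cells that lack CD45 and CD11b. BAL101553-treated tumors were taken after a longer time of growth than control tumors, and treatment and time of growth therefore cannot be told apart. No label states that the replicates of a group came from separate mice, in which case the p-values measure only the spread between these libraries.

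Between 22919523 and 34013875 reads were counted per library. Levels are given below as CPM, the reads of a gene relative to the scaled total of its library with TMM scaling over the 9 libraries, in the order of replicates 1, 2 and 3. The 8 astrocyte markers summed to 945 to 981 CPM in the control libraries, 691 to 811 CPM in the BAL101553 libraries and 12450 to 15326 CPM in the libraries labelled astrocytes. Most of the astrocyte sum in SB28 cells was Gja1, while the glutamate transporter Slc1a2 lay between 0.853 and 1.61 CPM in all 6 of these libraries, against 4753 to 5965 CPM in the libraries labelled astrocytes. In sum, 6 oligodendrocyte markers had 18.7 to 20.6 CPM in the control and 15.3 to 18.9 CPM in the BAL101553 libraries. The 3 libraries labelled astrocytes held them at 10282 to 12723 CPM. Their 6 markers of the ciliated ependyma summed to 453 to 719.9 CPM and 6 microglia markers to 427 to 875 CPM. Of the microglia markers, Tmem119 was lower than in any tumor library and the others were higher. Of the endothelial markers, Cldn5 and Pecam1 had means of 61.3 and 23.6 CPM, Cdh5 was lower than in any tumor library and Flt1 overlapped. These libraries are therefore described below as libraries labelled astrocytes and not as a pure cell type. In such bulk libraries, fewer cells of a type and less RNA per cell cannot be told apart.

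**Figure D1:**
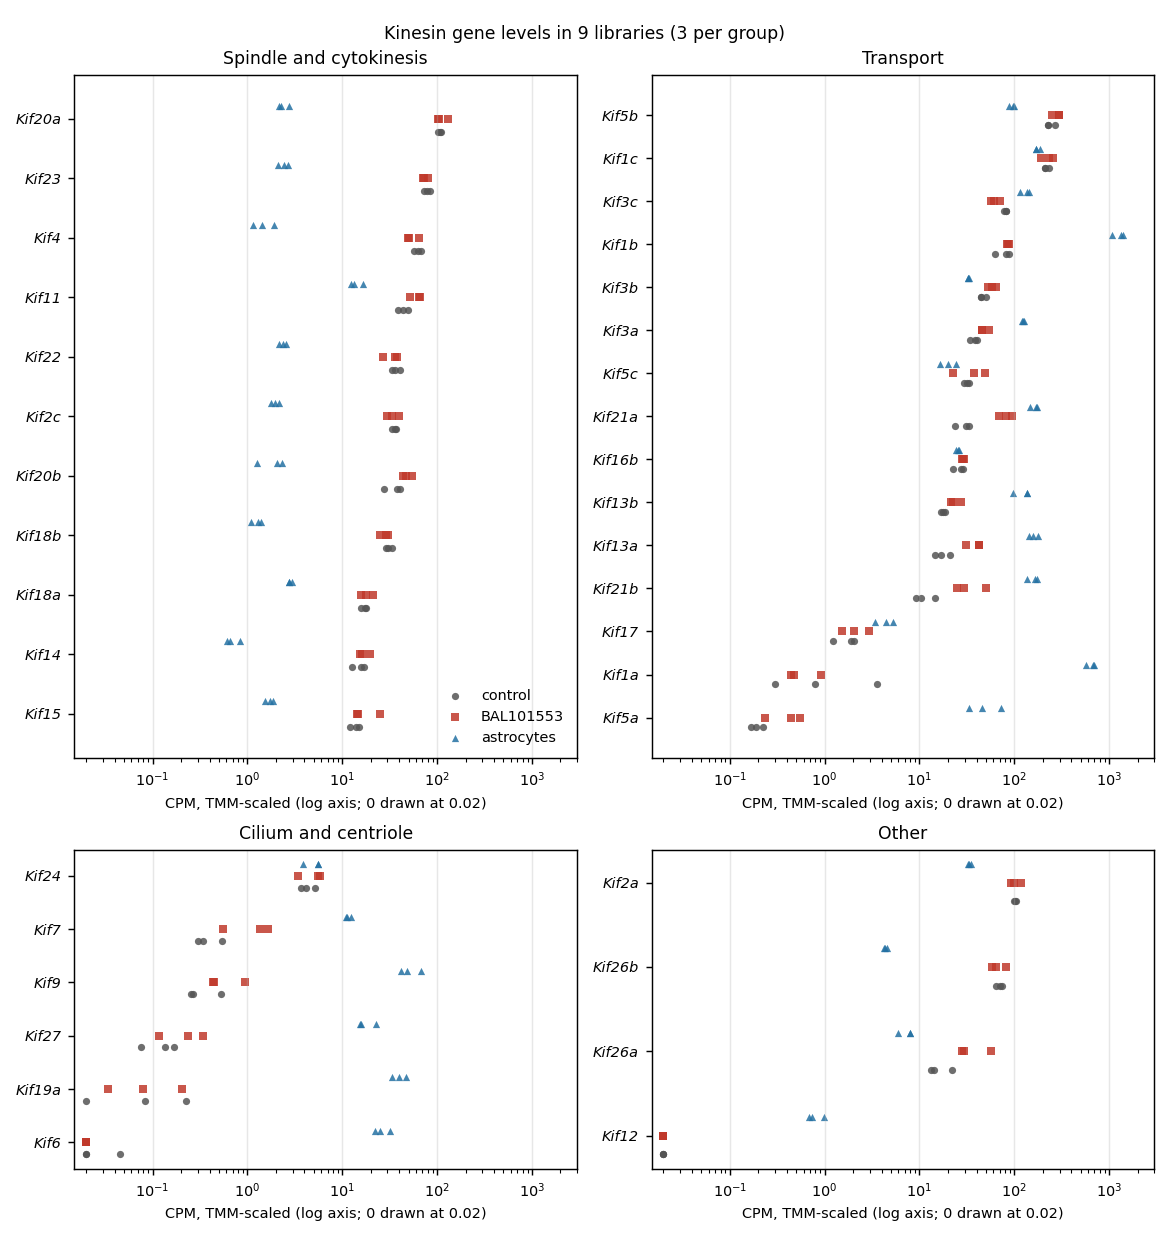
Level of each kinesin motor gene in each library (CPM scaled by TMM, log axis; 1 symbol per library, 3 libraries per group), ordered by the control mean within each role; Kif2b, at 0 in every library, is left out. The mitotic kinesins of the libraries labelled astrocytes (triangles) lie far to the left of both tumor groups, their ciliary kinesins mostly far to the right, and control and BAL101553 libraries lie close together for most genes.

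The plot of levels by library shows how the superfamily was used in SB28 cells. Per kilobase of exon, which allows genes to be compared, Kif5b, the ubiquitous heavy chain of conventional kinesin, had the highest level in the control libraries at 30.4 ± 3.04 CPM per kb (SD, n = 3). It was followed by Kif1c, a kinesin-3 that carries vesicles, at 29.8 ± 1.60 CPM per kb, which did not differ from it beyond their spread. Next came Kif20a, a kinesin of the central spindle that is needed for cytokinesis, at 24.6 ± 0.829 CPM per kb, and Kif2a, which shortens microtubule ends, at 15.8 ± 0.397 CPM per kb. The same 4 genes led in the same order after BAL101553, with Kif5b at 35.2 ± 3.13 and Kif20a at 25.8 ± 3.51 CPM per kb. Of the summed level per kilobase of all kinesin motors, mitotic kinesins made up 38.8 ± 0.818% (SD, n = 3) in control and 35.2 ± 1.85% in BAL101553 libraries, and transport kinesins 50.5 ± 0.644% and 53.9 ± 2.61%.

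Too few reads for a test between control and BAL101553 were found for 8 members, which are therefore in none of the counts of tested members. Kif2b, a spindle kinesin, and Kif4-ps had 0 reads in all 9 libraries, and Kif16bos had at most 1 read in any. Kif12, a kinesin best known from kidney and liver, had 0 reads in all 6 tumor libraries. Of the 6 kinesins of the cilium or centriole, 3 had few reads there too, with at most 1 read of Kif6, 7 of Kif19a and 10 of Kif27 in any tumor library. Kif5a, the neuronal heavy chain of conventional kinesin, reached 4 to 5 reads in control and 6 to 16 reads in BAL101553 libraries.

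Many genes of the late cell cycle share short promoter elements, the cell cycle genes homology region (CHR), which multi-protein complexes of the MuvB family bind, and the CCAAT box, which NF-Y binds. RefSeq promoters of the GRCm38.p6 assembly, each 300 bases from 250 before to 50 after a start site, were searched on both strands for the CHR letters TTTGAA, for the variant TTCGAA and for CCAAT; a CHR and a CCAAT box can share at most a letter at their ends. A promoter was matched for 11 of 12 mitotic kinesins, without Kif20a, and for 11 of 15 transport kinesins, without Kif13b, Kif21b, Kif5a and Kif5b. CHR letters were found in 9 of the 11 mitotic kinesins (81.8%), in 1 of the 11 transport kinesins (9.09%, Kif1a) and in 20.2% of all 27025 genes with a promoter. The CHR of Kif1a lay in its promoter at chr1:93082431-93082730, inside the annotated gene (chr1:93015464-93101951, minus strand). Its promoter nearest the gene start, chr1:93101825-93102124, held none. The CHR variant was found in 0 of either group and in 1.8% of all genes. CCAAT was found in 7 of 11 mitotic kinesins (63.6%), 3 of 11 transport kinesins (27.3%) and 41.1% of all genes. Of the mitotic kinesins with CHR letters, Kif14, Kif2c and, nearer the gene start, Kif4, Kif15 and Kif22 were searched at a listed start inside the annotated gene. Kif17 of the transport kinesins was too and, nearer the gene start, so were Kif13a, Kif16b and Kif3b, and none of these held a CHR. A match describes the letters of the promoter and is no evidence of binding.

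In 7 mitotic kinesins a CHR began within 25 bases of the start site, between positions -19 and 20 when the start site is base 1 and no base is 0, whereas this held for 0 transport kinesins and for 3.1% of all genes with a promoter. Of the remaining kinesins, 1 had such a CHR, Kif26b, at -9 and with a CCAAT box at -73. The start regions of the 7 are shown because all 11 mitotic kinesins tested were lower in the libraries labelled astrocytes (below), those with no CHR near the start included. Each runs 5′ to 3′ along the gene, from 90 bases before to 30 bases after the start, and capitals mark CHR letters (TTTGAA, or TTCAAA where the match is on the other strand) and CCAAT letters (CCAAT or ATTGG). On GRCm38.p6 they are Kif11 at chr19:37376292-37376411 on the plus strand, Kif15 at chr9:122950991-122951110 on the plus strand, Kif18b at chr11:102925095-102925214 on the minus strand, Kif20b at chr19:34922268-34922387 on the plus strand, Kif22 at chr7:127042391-127042510 on the minus strand, Kif23 at chr9:61946770-61946889 on the minus strand and Kif4 at chrX:100625975-100626094 on the plus strand.
Kif11: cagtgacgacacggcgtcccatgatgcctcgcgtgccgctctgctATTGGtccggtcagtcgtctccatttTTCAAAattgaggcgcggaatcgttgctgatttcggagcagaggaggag
Kif15: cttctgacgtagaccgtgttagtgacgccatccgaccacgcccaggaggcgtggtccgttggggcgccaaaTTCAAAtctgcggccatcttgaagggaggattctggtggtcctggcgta
Kif18b: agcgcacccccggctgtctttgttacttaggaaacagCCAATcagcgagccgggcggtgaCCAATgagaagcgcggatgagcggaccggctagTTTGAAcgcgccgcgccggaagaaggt
Kif20b: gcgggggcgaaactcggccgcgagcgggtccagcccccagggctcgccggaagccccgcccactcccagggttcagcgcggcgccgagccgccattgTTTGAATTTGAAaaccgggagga
Kif22: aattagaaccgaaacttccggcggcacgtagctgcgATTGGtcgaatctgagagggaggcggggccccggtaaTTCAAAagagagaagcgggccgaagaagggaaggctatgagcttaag
Kif23: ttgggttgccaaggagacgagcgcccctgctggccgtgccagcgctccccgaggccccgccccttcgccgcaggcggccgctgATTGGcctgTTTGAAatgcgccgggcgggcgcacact
Kif4: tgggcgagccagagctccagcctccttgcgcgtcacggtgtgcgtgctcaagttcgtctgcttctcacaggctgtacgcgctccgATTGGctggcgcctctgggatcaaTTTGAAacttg

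For comparison, the start regions of Kif21a and Kif13a, the transport kinesins with a promoter that rose after BAL101553 (below), hold none of these letters in the same window. They are Kif21a at chr15:91049922-91050041 on the minus strand and Kif13a at chr13:46929689-46929808 on the minus strand.
Kif21a: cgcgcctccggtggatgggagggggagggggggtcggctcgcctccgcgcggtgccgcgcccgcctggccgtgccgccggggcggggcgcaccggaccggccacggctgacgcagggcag
Kif13a: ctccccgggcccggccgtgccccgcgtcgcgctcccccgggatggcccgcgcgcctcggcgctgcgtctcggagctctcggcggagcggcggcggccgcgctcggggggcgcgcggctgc

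The 7 windows differ in where the CHR lies and in what accompanies it. Kif20b, a cytokinesis kinesin, carries 2 CHR in direct succession and no CCAAT. Kif18b, which trims astral microtubules, carries 2 CCAAT boxes ahead of its CHR. Kif18a, which damps chromosome movements at the metaphase plate, has neither element in its promoter. In Kif14 and Kif2c the CHR lies farther upstream of the listed start, at -228 and -103. For these 2 the promoter lies inside the annotated gene. It is chr1:136467598-136467897 for Kif14 (gene from 136466343, plus strand). For Kif2c it is chr4:117178723-117179022 (gene up to 117182639, minus strand).

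**Figure D2:**
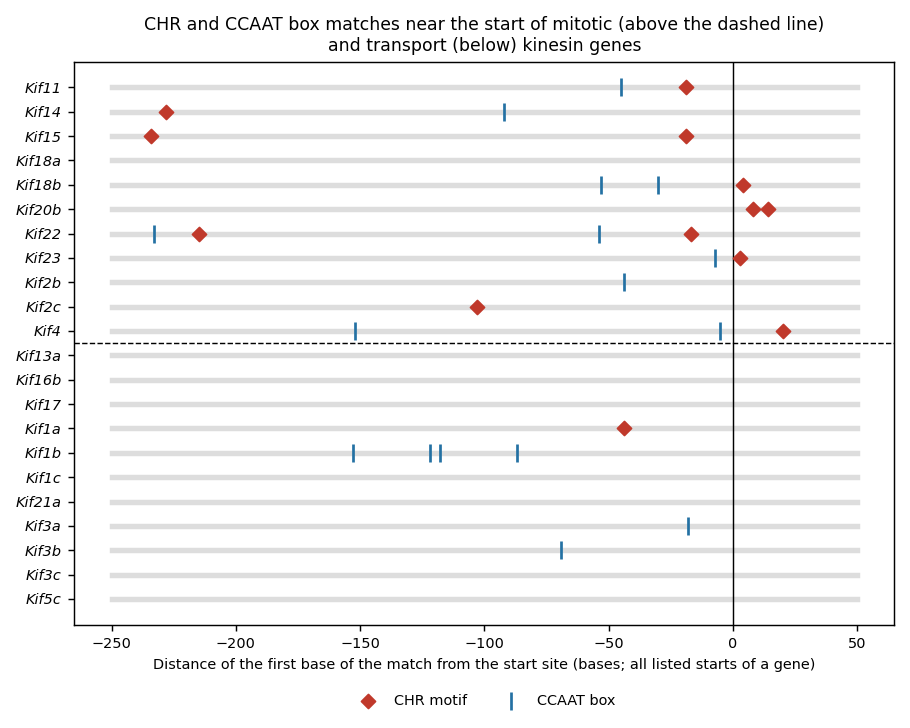
Positions of CHR (diamonds) and CCAAT box (bars) matches in the promoters of 11 mitotic and 11 transport kinesin genes, as the distance in bases from the start site (vertical line); grey bars are the 300 bases searched. Diamonds gather within 25 bases of the start in 7 mitotic kinesins and in 0 transport kinesins.

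The first comparison asked which kinesin genes differed between SB28 cells of BAL101553-treated and vehicle control mice. Of 32 kinesin rows tested, 4 rose and 1 fell, 3 of the 4 rises among the transport kinesins (Kif21a, Kif21b and Kif13a), and none of the 11 mitotic kinesins tested passed the threshold. Genes passed where the p of edgeR's quasi-likelihood test, adjusted by Benjamini-Hochberg for all 12633 genes in the fit, was under 0.05. In all genes 14.7% passed, 8.64% higher and 6.09% lower, so the members' share of 15.6% was near the background. The libraries of the groups did not overlap for 12 of the 32 members, 10 higher and 2 lower, against 39.7% of all genes. With library sizes scaled by total reads alone, which shifts the median of all genes by 0.09 on the log2 scale, 8 members rose and 0 fell, beside 11.5% of all genes higher and 3.36% lower (14.9% in all).

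Of the 11 mitotic kinesins tested, edgeR and limma-trend called 0 and DESeq2 called 1 (Kif11), where limma-trend called 15.2% and DESeq2 22.4% of all genes. Kif11 and Kif20b were the 2 whose groups did not overlap, beside 39.7% of all genes. The same 2 had an unadjusted p under 0.05 in edgeR's test, a cutoff at which all genes were not counted. The log2 fold changes of the 11 tested ran from -0.19 (Kif4) to 0.47 (Kif11), with a median of 0.08 beside 0.02 for all genes tested, and 6 were above 0. Near 0 the sign depended on the scaling: Kif23 and Kif2c turned with total library size and Kif18a with the length and GC trend removed. Summed over the group, control libraries held 467 to 486 CPM and BAL101553 libraries 461 to 534 CPM, and these ranges overlap.

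Kif11, the tetrameric motor that pushes spindle poles apart, stood at 38.3, 49.9 and 43.8 CPM in the control libraries and at 51.8, 64.5 and 65.5 CPM in the BAL101553 libraries. Each BAL101553 library lay above each control library, and the log2 fold change of 0.47 ± 0.13 (SE) had an adjusted p of 0.0541 in edgeR's test. Under DESeq2, total library size, a model of all 9 libraries or the replicate number as a block, that adjusted p was 0.0203, 0.039, 0.0474 and 0.0389. Limma-trend did not call Kif11, and DESeq2 called 22.4% of all genes. The other spindle kinesin whose groups did not overlap was Kif20b, at 27.5, 37.9 and 40.4 CPM in control and 46.5, 43.5 and 54.3 CPM in BAL101553 libraries (log2 fold change 0.45 ± 0.16, adjusted p = 0.0879).

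The 4 mitotic kinesins with the highest levels per kilobase in control libraries overlapped between the groups. Kif20a had 103, 109.8 and 107 CPM in control and 101, 106 and 129 CPM in BAL101553 libraries. Kif23, the motor subunit of the centralspindlin complex of the midzone, had 83.6, 79.0 and 72.2 CPM against 79.4, 71.1 and 73.0 CPM. For Kif4, a chromokinesin that works with PRC1 at the midzone, the values were 67.5, 57.4 and 63.4 CPM against 49.9, 63.8 and 50.5 CPM. These 3 genes show a spread within a group as wide as the distance between the groups, and so did Kif18b, with 30.1, 33.4 and 28.8 CPM against 30.4, 25.2 and 29.2 CPM. For these 4 the log2 fold changes were 0.08, -0.07, -0.19 and -0.11, with adjusted p from 0.321 to 0.653. The remaining 5 tested, Kif14, Kif15, Kif18a, Kif22 and Kif2c, had adjusted p from 0.265 to 0.875. By exon annotation, 29.3% of Kif20a overlaps Cdc23 and 15.1% of Kif4 overlaps Pdzd11 on the opposite strand; the libraries were stranded, but whether reads were counted by strand is not given in the sources used here.

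**Figure D3:**
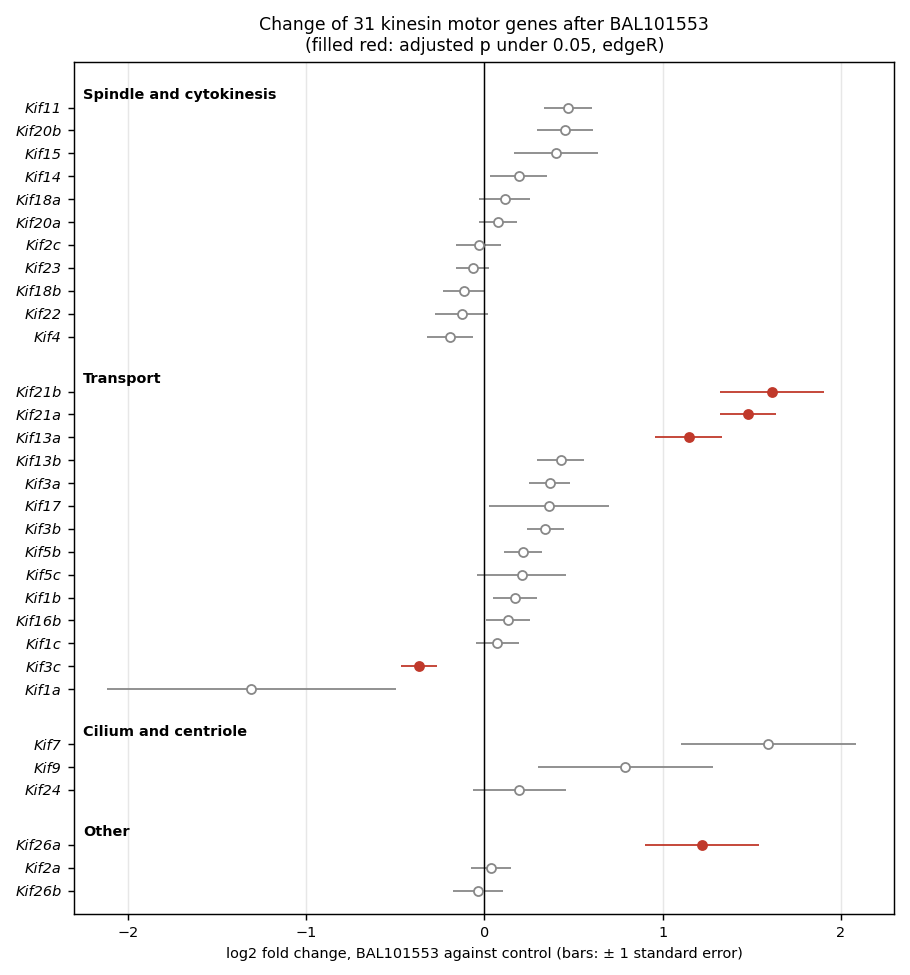
log2 fold change of each tested kinesin motor gene in BAL101553 against control libraries (x axis; bars ± 1 SE; n = 3 per group), grouped by role; filled red points have an adjusted p under 0.05. Mitotic kinesins sit within -0.19 and 0.47, and the points past 1 with a filled symbol are Kif21b, Kif21a, Kif26a and Kif13a.

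Of 14 transport kinesins tested, 12 had a log2 fold change above 0, beside 51.5% of all genes, and the median was 0.28 beside 0.02 for all genes, as the plot of fold changes shows. By edgeR's test 3 of the 14 rose and 1 fell, beside 14.7% of all genes called, and DESeq2 called 7, adding Kif13b, Kif3a and Kif3b, beside 22.4% of all genes. Their summed level was 810.4 to 893 CPM in control and 951 to 1049 CPM in BAL101553 libraries, and these ranges do not overlap. With the trend of the fold changes on transcript length and GC content removed, a correction added after the data were seen, the median was 0.15 and the directions of Kif16b, Kif1b and Kif1c turned.

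Kif21a, a motor that halts microtubule growth at the cell cortex and is mutated in a congenital eye movement disorder, stood at 23.9, 33.2 and 30.9 CPM in the control libraries and at 93.7, 68.7 and 82.4 CPM in the BAL101553 libraries. The lowest BAL101553 library was far above the highest control library. The log2 fold change was 1.48 ± 0.16 (SE), a 2.79-fold rise with an adjusted p of 0.00608. On the mouse genome (GRCm38) the gene lies at chr15:90933276-91049948 on the minus strand.

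Its close relative Kif21b, which limits microtubule growth in neurons and lymphocytes and lies at chr1:136131389-136177998 on the plus strand, had 14.8, 9.21 and 10.5 CPM in control and 29.7, 50.1 and 25.1 CPM in BAL101553 libraries. All 3 BAL101553 values were above all 3 control values, with BAL101553 2 the highest. This was a 3.06-fold rise (log2 fold change 1.61 ± 0.29, adjusted p = 0.0166). Per kilobase, Kif21b was the lower of the pair, at 0.943 ± 0.239 CPM per kb in control libraries beside 4.53 ± 0.746 for Kif21a.

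Kif13a, a kinesin-3 that moves recycling endosomes (chr13:46749087-46929867, minus strand), had 21.1, 14.4 and 16.9 CPM in control and 30.7, 42.5 and 42.4 CPM in BAL101553 libraries. The groups did not overlap, and the rise was 2.21-fold (log2 fold change 1.15 ± 0.19, adjusted p = 0.0132). Its paralog Kif13b had 16.9, 18.6 and 17.9 CPM against 22.5, 27.6 and 21.6 CPM, again without overlap, with a log2 fold change of 0.43 ± 0.13 and an adjusted p of 0.0659.

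Of the kinesin-2 family, which carries cargo into cilia and along axons, 1 member passed the threshold. This was Kif3c, which pairs with Kif3a and had 82.0, 82.7 and 78.0 CPM in control and 61.0, 56.3 and 70.5 CPM in BAL101553 libraries, without overlap. It fell by 0.36 on the log2 scale (SE 0.10, adjusted p = 0.0494), which is just inside the threshold. Kif3a, the common subunit, had 38.5, 34.0 and 40.5 CPM against 45.9, 45.1 and 54.2 CPM, and Kif3b, the partner of Kif3a in ciliary transport, had 44.2, 50.8 and 44.4 CPM against 58.9, 53.3 and 63.9 CPM. Both were higher in every BAL101553 library, with log2 fold changes of 0.37 and 0.34 and adjusted p of 0.0683 and 0.0633. Exons of 1110002L01Rik on the opposite strand cover 35.3% of Kif3c. Kif17, the kinesin-2 that works as a homodimer, was low, at 1.21 to 2.02 CPM in control and 1.54 to 2.94 CPM in BAL101553 libraries.

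The 2 most abundant transport kinesins per kilobase overlapped between the groups. Kif5b had 229, 271 and 229 CPM in control and 293, 252 and 298 CPM in BAL101553 libraries (log2 fold change 0.22 ± 0.11, adjusted p = 0.196). Kif1c had 209, 230.5 and 212 CPM against 259, 189.7 and 234 CPM (0.07 ± 0.12, adjusted p = 0.701). Kif1b, which carries mitochondria and synaptic vesicle precursors, had 62.5, 87.3 and 80.8 CPM against 86.8, 84.2 and 87.4 CPM, and its overlap comes from control 2. Kif1a, the motor of synaptic vesicle precursors in axons, was at 3.54, 0.303 and 0.800 CPM in control and 0.445, 0.473 and 0.913 CPM in BAL101553 libraries. Control 1 alone stood apart there: the log2 fold change was -1.31 ± 0.81 (adjusted p = 0.294) with it and 0.17 without it. Kif16b, which positions early endosomes, and Kif5c, a neuron-enriched heavy chain, had adjusted p of 0.477 and 0.588.

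**Figure D4:**
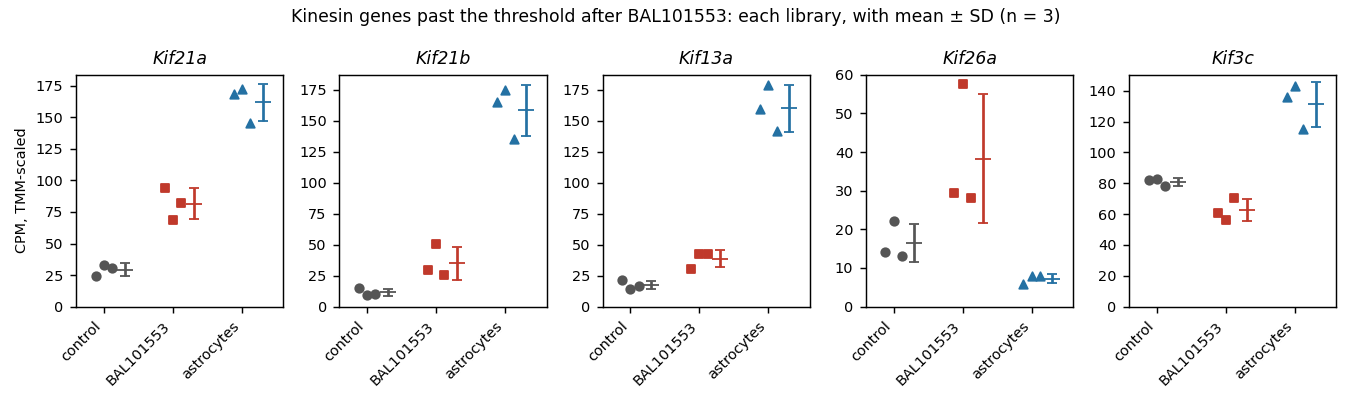
Level of the 5 kinesin genes that passed the threshold between BAL101553 and control, in each of the 9 libraries (CPM scaled by TMM, linear axes from 0, each panel with its own scale), with mean ± SD (n = 3) beside each group. Control and BAL101553 libraries do not overlap in any panel, and the libraries labelled astrocytes are highest for every gene except Kif26a, where they are lowest.

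Among the kinesins of other roles, Kif26a rose. Kif26a and its paralog Kif26b are atypical kinesins that bind microtubules without hydrolyzing ATP. Kif26a (chr12:112146208-112181747, plus strand) had 14.2, 22.2 and 13.2 CPM in control and 29.5, 57.5 and 28.0 CPM in BAL101553 libraries, a 2.33-fold rise (log2 fold change 1.22 ± 0.32, adjusted p = 0.0421). The library BAL101553 2 stood well above the rest of its group. Kif26b had 74.9, 70.1 and 64.2 CPM against 81.7, 57.6 and 63.9 CPM, and Kif2a 103, 101 and 98.2 CPM against 98.8, 119 and 91.3 CPM, both with overlap and adjusted p of 0.868 and 0.847.

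Of the ciliary and centriolar kinesins, 3 were tested and all 3 were above 0. EdgeR, DESeq2 and limma-trend called 0 of them, beside 14.7%, 22.4% and 15.2% of all genes. By edgeR's test 1 of them (Kif7) had an unadjusted p under 0.05, a cutoff at which all genes were not counted. Kif7, which relays Hedgehog signals at the cilium tip, had 0.538, 0.303 and 0.337 CPM in control and 0.547, 1.34 and 1.65 CPM in BAL101553 libraries, with BAL101553 1 hardly above control 1 (log2 fold change 1.59 ± 0.49, adjusted p = 0.0648). Exons of 9330171B17Rik on the opposite strand cover 19.1% of Kif7. Kif9, a kinesin of motile cilia, and Kif24, which acts at the centriole, had adjusted p of 0.292 and 0.627. Kif1bp, which binds kinesins and blocks some of them, had 36.1, 29.9 and 36.5 CPM against 29.7, 26.2 and 29.9 CPM (adjusted p = 0.181).

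How far the 5 calls rest on single libraries was read by leaving libraries out, as the plot of left-out libraries shows. Kif21a passed in all 6 fits without 1 library, with log2 fold changes from 1.35 to 1.59. Kif13a and Kif21b passed in 5 of the 6 and missed the threshold without control 3, at adjusted p of 0.0641 and 0.0753. Kif26a passed in 1 of the 6, without control 2, and its log2 fold change was 0.80 without BAL101553 2. Kif3c passed in 1 of the 6, without BAL101553 3. Without control 3, 1 member and 193 of all genes passed, and without control 1, 3 members and 458 of all genes.

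**Figure D5:**
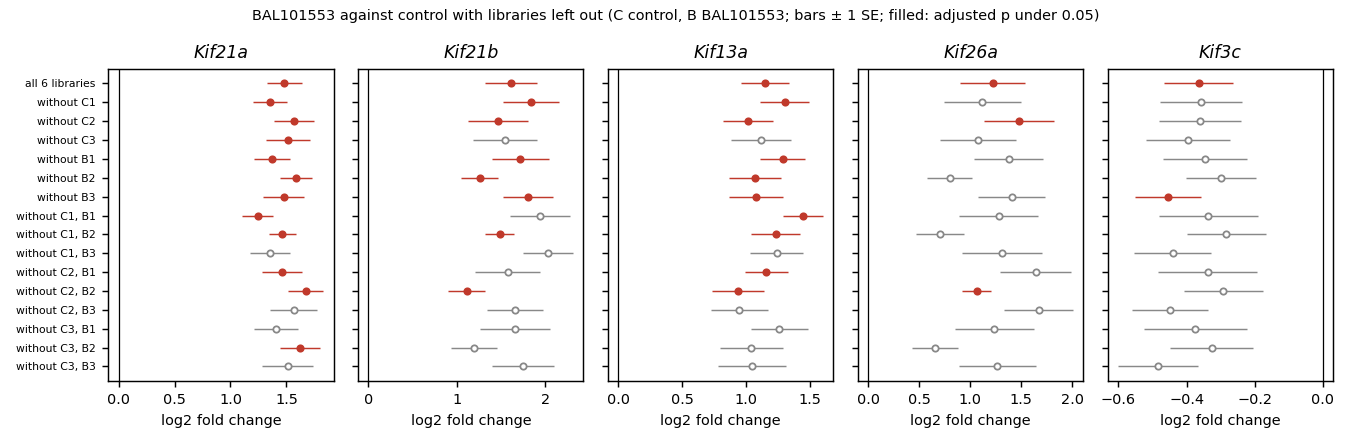
log2 fold change (x axis, bars ± 1 SE) of the 5 genes in BAL101553 against control, with all 6 libraries and with 1 library or 1 library of each group left out (y axis: C, control; B, BAL101553); filled red points have an adjusted p under 0.05. Every point of Kif21a, Kif21b, Kif13a and Kif26a lies above 0 and every point of Kif3c below it.

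Other changes in the libraries moved alongside these calls. The 6 microglia markers summed to 158.5 to 292 CPM in control and 309.9 to 385 CPM in BAL101553 libraries, nearly all of it Tmem119 (155 to 289 and 308 to 382 CPM, adjusted p = 0.0631 by edgeR's test). The other 5 were low and went both ways: P2ry12 fell from a mean of 1.74 to 0.463 CPM (log2 fold change -1.88, adjusted p = 0.0313), Csf1r had a mean of 0.387 and 0.602 CPM, and the means of C1qa, C1qb and Cx3cr1 were lower after BAL101553, at 0.421, 0.380 and 0.240 CPM. Endothelial markers summed to 735 to 859 and 515 to 643 CPM, most of it Cdh5 at 703 to 823 and 489.5 to 571 CPM. Flt1 went the other way, with means of 33.9 and 41.7 CPM and overlap. Cldn5 (means of 0.980 and 0.811 CPM) and Pecam1 (0.857 and 0.532 CPM) were near the floor. Neuronal markers overlapped, at 20.1 to 32.2 and 14.2 to 34.5 CPM. The sum of astrocyte markers was lower after BAL101553, most of it through Gja1, which fell from a mean of 911 to 702 CPM (log2 fold change -0.37, adjusted p = 0.0363). Slc1a3, the other astrocyte glutamate transporter, rose from 0.583, 0.606 and 0.716 CPM to 1.30, 2.96 and 1.41 CPM (log2 fold change 1.57, adjusted p = 0.0403), and Aldoc and Slc4a4 had higher means with overlap, while Slc1a2 was at most 1.61 CPM in any of the 6 libraries. The part of these lists in the kinesin calls was not tested beyond these values.

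The partners of the kinesins were read from lists drawn up by function. Of 13 tested light chains, adaptors and cargo scaffolds, 3 rose and 1 fell, beside a background of 14.7%. Mapk8ip3, a JNK-pathway scaffold that binds kinesin-1, had 69.1, 71.2 and 65.7 CPM in control and 97.9, 99.4 and 93.2 CPM in BAL101553 libraries (log2 fold change 0.50 ± 0.08, adjusted p = 0.0127), with each group held in a narrow range. The other rises were Kidins220 and Klc4, a kinesin light chain, and Fez2 fell by 0.52 on the log2 scale (adjusted p = 0.0164). Of 5 kinesins that carry other names, Kifc2, a minus-end motor of neurons, rose from 0.269, 0.379 and 0.547 CPM to 1.74, 1.18 and 1.97 CPM (log2 fold change 2.03 ± 0.38, adjusted p = 0.0173), and Cenpe, the kinetochore kinesin, did not pass (0.25 ± 0.09, adjusted p = 0.0828). Of 18 cell division genes, 1 rose by edgeR's test (Bub1b, 0.37 ± 0.10, adjusted p = 0.0465), and the median of 18 was -0.05. DESeq2 called 3 of the 18, Bub1b, Mki67 and Cdk1, beside 22.4% of all genes. In edgeR's fit Mki67 was higher (0.51, adjusted p = 0.0813) and Cdk1 lower (-0.35, adjusted p = 0.0650), both without overlap.

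The second comparison set the libraries labelled astrocytes against the BAL101553 libraries, which the labels give the same treatment. All 11 mitotic kinesins tested were lower in the libraries labelled astrocytes, with log2 fold changes from -2.09 (Kif11) to -5.54 (Kif20a), while Kif1a, Kif9 and Kif1b had the largest rises among the members with enough reads in tumor libraries. Of the 32 members with enough reads for a test in the tumor libraries, 12 were higher and 18 lower by edgeR's test. Another 5 members (Kif12, Kif19a, Kif27, Kif5a and Kif6) could be tested only through their reads in the libraries labelled astrocytes, which fixed their direction, and they are in no count here. In all 15314 genes tested, 85.1% passed, 46.3% higher and 38.9% lower, and of the 12550 also tested between the tumor groups 82.4%, so a pass as such says little here, and sizes are given instead. For Kif16b and Kif24 the adjusted p was 0.103 and 0.931.

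Summed, the mitotic kinesins had 29.7 to 37.9 CPM in the libraries labelled astrocytes, against 461 to 534 CPM in the BAL101553 libraries. The median log2 fold change of the 11 was -4.47, beside 0.18 for all genes tested and -0.24 for those with enough reads in tumor libraries. Kif20a was at 2.25, 2.17 and 2.72 CPM, 46.7-fold lower than in BAL101553 libraries (adjusted p = 3.39e-08). Kif4 was at 1.42, 1.14 and 1.93 CPM (36.3-fold lower), Kif23 at 2.13, 2.45 and 2.68 CPM (30.6-fold lower) and Kif20b at 2.03, 1.28 and 2.34 CPM (25.3-fold lower). None of these libraries came near the lowest tumor library of the same gene. The smallest fall of the 11 was that of Kif11, at 13.4, 12.2 and 16.6 CPM, which left it 4.26-fold lower. At 1.89 ± 0.299 CPM per kb (SD, n = 3) it had the highest level per kilobase of the group in these libraries. Kif2a, which was not grouped as mitotic, was at 5.28 ± 0.195 CPM per kb there. The 18 cell division genes were all lower too, with a median of -4.56.

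Transport kinesins went both ways, 9 higher and 4 lower of the 14 with enough reads in tumor libraries, with a median of 1.05 beside -0.24 for all such genes. Kif1a went from 0.445, 0.473 and 0.913 CPM in BAL101553 libraries to 691, 680.2 and 564 CPM, the largest rise of this group (log2 fold change 10.01 ± 0.26). Kif1b reached 1334, 1397 and 1070.0 CPM, 14.9-fold above the BAL101553 libraries. Each of these genes lay in the libraries labelled astrocytes far above every tumor library. Kif13b followed, at 136, 134 and 97.8 CPM (5.20-fold higher). Kif5a, whose reads in the libraries labelled astrocytes fixed its direction, went from 0.547, 0.237 and 0.442 CPM to 72.5, 45.7 and 33.4 CPM.

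The 6 neuronal markers summed to 13.5 to 15.4 CPM in the libraries labelled astrocytes, against 14.2 to 34.5 CPM in the BAL101553 libraries, and the list went both ways. Stmn2 and Gad1, which made up most of the sum in tumor libraries, were lower, at a mean of 3.996 and 2.16 CPM beside 18.5 and 5.08 CPM. Snap25 was higher, at 4.89 beside 0.281 CPM, as were Slc17a7, at 1.001 beside 0.0263 CPM, and Rbfox3, at 1.06 CPM where tumor libraries had 0 reads. The part of these markers in the levels of the neuronal motors Kif1a and Kif5a was not tested beyond these values. Of the 4 genes that rose after BAL101553, 3 were higher still in the libraries labelled astrocytes, where Kif21a had 168, 172 and 145 CPM, Kif21b 165, 175 and 135 CPM and Kif13a 159, 179 and 141 CPM, whereas Kif26a was lower there than in any tumor library. Kif3c, lower after BAL101553, was at 136, 143 and 115 CPM. The comparisons share the BAL101553 libraries, and these values are set side by side only.

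The 4 transport kinesins that were lower were Kif5b, Kif3b, Kif5c and Kif1c. Kif5b, the leading kinesin of the tumor cells, had 99.6, 98.1 and 88.5 CPM (2.92-fold lower, adjusted p = 2.73e-06), and Kif3b had 33.0, 32.9 and 32.8 CPM (1.77-fold lower). Kif1c had 188, 169.5 and 171 CPM, with a log2 fold change of -0.36 ± 0.13 and an adjusted p of 0.0307. Kif5c, at 24.2, 20.2 and 16.5 CPM, overlapped with its 22.6, 49.0 and 37.9 CPM in BAL101553 libraries. The calls of both Kif1c and Kif5c ended with total library size or upper-quartile scaling, with at least 10 counts required in every library (adjusted p = 0.353 and 0.0713), and without BAL101553 3, astrocytes 2 or astrocytes 3, that of Kif1c also without BAL101553 1 and that of Kif5c without BAL101553 2. With the length and GC trend removed, which shifts the median of all genes by -0.82, those of Kif21a, Kif3c and Kif17 ended, and Kif17 turned from 1.01 to -0.15. With that removal Kif16b (-0.85, adjusted p = 3e-05) and Kif24 (-0.79, adjusted p = 0.0209) passed as lower, Kif24 turning from 0.03, and Kif1c went to -1.31 (adjusted p = 1.29e-05).

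Among the kinesins of the cilium or centriole, Kif7, Kif9 and Kif24 had enough reads in tumor libraries for a test there, and Kif7 and Kif9 were higher in the libraries labelled astrocytes. Kif9 had 48.1, 41.7 and 67.9 CPM in the libraries labelled astrocytes (6.40 ± 0.33). For Kif19a, Kif27 and Kif6, the reads in these libraries fixed the direction. Kif19a, which sets the length of motile cilia, had 39.6, 33.1 and 47.2 CPM where BAL101553 libraries held 1, 2 and 7 reads, so that its log2 fold change of 8.43 ± 0.34 was 9.41 without BAL101553 3. Kif27, a relative of Kif7, had 15.4, 15.6 and 22.5 CPM (6.23 ± 0.33). Kif6, another kinesin of motile cilia, had 24.8, 22.3 and 31.9 CPM where BAL101553 libraries had 0 reads, at least 255-fold higher against a floor of 3 reads per library. Kif7 was 9.87-fold higher, at 12.5, 11.3 and 11.0 CPM. The third library labelled astrocytes was the highest of its group for Kif6, Kif9, Kif19a and Kif27. For Kif7 it was the lowest, and for Kif24 it was not the highest. It was the highest for the summed ependymal markers, at 719.9 CPM against 517 and 453 CPM. The ciliary regulator Foxj1 stood at 271 CPM there against 205 and 182 CPM. The part of ependymal cells in the ciliary kinesins was not tested beyond these values. Kif24 did not follow, at 5.58, 3.86 and 5.51 CPM beside 5.81, 3.39 and 5.57 CPM in BAL101553 libraries.

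Of the other kinesins, Kif26b was at 4.56, 4.24 and 4.38 CPM (15.2-fold lower than in BAL101553 libraries), Kif26a at 5.95, 7.86 and 7.93 CPM (5.21-fold lower) and Kif2a at 32.8, 35.2 and 33.4 CPM (3.01-fold lower). Kif12, whose reads in these libraries fixed its direction, had 0.740, 0.690 and 0.981 CPM, at least 7.79-fold higher against the same floor. Kif1bp rose 4.75-fold, to 137, 134 and 132 CPM. Exons of Dimt1 on the opposite strand cover 19.2% of Kif2a.

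Per kilobase, the makeup of the superfamily was a different one in the libraries labelled astrocytes. Kif1b led at 72.0 ± 9.85 CPM per kb (SD, n = 3), level with Kif1a at 69.2 ± 7.53 within their spread, and followed by Kif3a at 34.3 ± 0.692, Kif21a at 24.99 ± 2.24 and Kif1c at 24.2 ± 1.46. Mitotic kinesins made up 1.42 ± 0.284% of the summed level per kilobase, transport kinesins 87.4 ± 2.86%, ciliary kinesins 9.24 ± 2.45% and the other kinesins 1.91 ± 0.179%, against 35.2%, 53.9%, 0.431% and 10.5% in BAL101553 libraries.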

How the data were processed

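RNA of 9 libraries (3 control, 3 BAL101553, 3 labelled astrocytes) was sequenced, and the authors deposited read counts per gene as whole numbers without normalization. Their processing notes name TopHat, HTSeq 0.6.1 and mm10. The annotation and the treatment of strand and of reads shared by near-identical genes are not given in the sources used here, so the counts of Kif4 may share reads with Kif4-ps, and those of Kifc1 with Kifc5b. Samples were grouped by their titles. The table holds 3 libraries per tumor group, which is more than the paper describes.

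Group tests ran in edgeR 4.0.16 (R 4.3.3), each on the libraries of the 2 groups compared: filterByExpr, TMM scaling, the quasi-likelihood F test (two-sided), and Benjamini-Hochberg correction for every gene in the fit, with a threshold of 0.05. The SE of a log2 fold change was obtained from its F statistic. CPM were scaled by TMM over all 9 libraries. Exon lengths, positions and overlaps came from GENCODE vM21 (GRCm38), which shares 23358 of the 24421 names of the table, plus 668 through older symbols. Replicates of a group differed by 14.3 to 64.9 times the counting noise (chi-square per degree of freedom), so none is a copy of another. That measure is an average over genes, so counting error need not be small beside the spread of a single member. Kif15, for instance, had 50, 50 and 49 reads in the libraries labelled astrocytes.

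The members, role groups and lists were chosen with earlier results of these data known. Named were members past the threshold between BAL101553 and control, the 4 highest per kilobase of each role, the 4 largest rises and falls of each role in the libraries labelled astrocytes, and members too low to test; partners were named for the lowest adjusted p of their list, and any other gene was chosen after its values were seen. Alternatives were DESeq2 1.42.0, limma-trend (limma 3.58.1), other scalings, filters of at least 1 count in any or 10 counts in every library, all 9 libraries in 1 model, the replicate number as a block, and libraries left out; removal of the length and GC trend was added after seeing the data. The in vitro libraries of the study were not analysed here.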

Additional observations from a re-analysis of the deposited data

How the results depend on the processing

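Between BAL101553 and control, 5 kinesin genes were called; DESeq2 called 9, total library size 8, all 9 libraries in 1 model 9, and fits with libraries left out 0 to 5, where fewer samples enter. The 0 arose in 4 fits without 1 library of each group, in which edgeR called 1 to 17 of all genes. Kif11, Kif3a and Kif3b were gained under DESeq2, total library size and all 9 libraries in 1 model, Kif13b under the first 2 of these and Kif7 under the last. Kif3c was lost under total library size, upper-quartile scaling, both filters and the replicate block, and Kif26a with the length and GC trend removed (1.07, adjusted p = 0.0635). Over 25 alternatives the log2 fold change of Kif21a ran from 1.24 to 1.67, with adjusted p from 1.37e-14 to 0.125. The median of the mitotic kinesins (0.08) was 0.17 with total library size, -0.079 with the length and GC trend removed and -0.061 to 0.16 with libraries left out; that of the transport kinesins (0.28) was 0.37, 0.15 and 0.22 to 0.33, and 0.35 with at least 10 counts in every library. For the libraries labelled astrocytes against BAL101553, 28 to 35 kinesin genes were called, the 28 where 5 genes with few tumor reads were no longer tested. These are Kif12, Kif19a, Kif27, Kif5a and Kif6, whose reads in the libraries labelled astrocytes fixed their direction. Without them edgeR's test called 12 of 32 as higher and 18 as lower (93.8%), beside 82.4% of all genes also tested between the tumor groups. The mitotic median (-4.47) was -4.26 with total library size, -4.29 with upper-quartile scaling, -4.24 with at least 10 counts in every library and -5.06 with the trend removed; the transport median (1.08 with Kif5a) was 1.28, 1.26, 1.27 and 0.28, and 0.99 to 1.27 with libraries left out. Total library size and upper-quartile scaling shift the median of all genes there by 0.20 and 0.18, and trend removal by -0.82. The causes were not tested.

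Directions turned between BAL101553 and control only for genes that had not passed: with the trend removed for Kif1b (-0.089), Kif1c (-0.092) and Kif2a (-0.10), with total library size for Kif23 (0.020) and Kif26b (0.049), and with libraries left out for Kif18b (-0.22 to 0.012), Kif1a (-2.23 to 0.36), Kif1c (-0.055 to 0.22), Kif20a (-0.058 to 0.16), Kif23 (-0.17 to 0.017), Kif26b (-0.25 to 0.12) and Kif2a (-0.11 to 0.14). Other members that had not passed turned as well, such as Kif16b and Kif18a with the trend removed.

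With the replicate number as a block, 5 kinesin genes were called between BAL101553 and control, Kif11 in place of Kif3c. Of all genes, 1371 were called in place of 1860. In the libraries labelled astrocytes 35 kinesin genes were called, with Kif12, Kif19a, Kif27, Kif5a and Kif6 among them, whose direction was fixed. Control and BAL101553 libraries of the same number correlated in their deviations from the group means at 0.102, 0.00547 and 0.112, and control 2 correlated best with BAL101553 3, so the numbers were not taken to pair the samples. Depth limits Kif2b, Kif4-ps, Kif16bos and, in the tumor libraries, Kif12 and Kif6, which had 3 reads or fewer.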

Other observations

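Dynein and dynactin, which carry cargo toward microtubule minus ends and so oppose most kinesins, were read from a list of 16 subunit genes. Between BAL101553 and control, edgeR, DESeq2 and limma-trend called 0 of the 16, beside 14.7%, 22.4% and 15.2% of all genes. In edgeR's test 4 had an unadjusted p under 0.05 (Dctn2, Dctn3, Dynll1 and Dynlt3), a cutoff at which all genes were not counted. Of the 16, 12 had a log2 fold change below 0, beside 6128 of all 12633 genes tested. The median of the 16 was -0.17 beside 0.02 for all genes tested. Summed, they had 2421 to 2539 CPM in control and 2291 to 2408 CPM in BAL101553 libraries, without overlap. Dynll1, a light chain, had 257, 237 and 274 CPM in control and 202, 194 and 236 CPM in BAL101553 libraries (log2 fold change -0.28 ± 0.11, adjusted p = 0.111). Dctn2, the dynactin subunit that links its arm and rod, had 168, 158 and 184 CPM against 149.8, 142 and 135 CPM (-0.25 ± 0.09, adjusted p = 0.101). The groups did not overlap for either gene, and neither passed the threshold.

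In the libraries labelled astrocytes, 6 of the 16 were higher and 7 lower than in BAL101553 libraries by edgeR's test, beside 85.1% of all genes called. Dync1h1, the heavy chain that is the motor itself, had 608, 581 and 513 CPM beside 902, 1028 and 910.5 CPM (log2 fold change -0.72 ± 0.11, adjusted p = 0.000283). Dynll2 had 161, 149.6 and 149.5 CPM beside 76.7, 72.6 and 72.7 CPM (1.07 ± 0.08, adjusted p = 3.98e-06). These genes were chosen after their values were seen. Among the kinesin adaptors, Mapk8ip1, a scaffold of JNK signaling, had 645, 653 and 549 CPM beside 7.46, 12.5 and 9.75 CPM (5.98 ± 0.21, adjusted p = 9.15e-08), and Fez1 had 577, 556 and 494 CPM beside 34.0, 64.3 and 35.5 CPM (3.63 ± 0.25, adjusted p = 3.24e-06).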
